A study of Rattus norvegicus with 11 samples.

Results

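miR-216a, miR-216b and miR-217 are microRNAs known from the acinar cells of the exocrine pancreas, and they were measured here in isolated islets of Sprague-Dawley rats at 2 ages. The members were taken by name, as every row of the deposited count table for an arm of these 3 precursors counted on the sense strand. This gave 6 of the 950 rows, the 5p and 3p arm of each precursor. A single antisense row at miR-216b-3p, with 2 reads in P10 replicate 6 and 0 in the other libraries, was left out. Small RNA of whole islets was sequenced from control rats at postnatal day 10 (P10, 5 libraries, 1.5 weeks by the labels) and from control males at 3 months (adult, 6 libraries, 12 weeks). Pup sex is not used here, and age cannot be told apart from sex. The libraries are called biological replicates, but the labels do not say whether each came from 1 animal or from several. The p-values therefore weigh the age difference against the spread between these libraries, which may be single animals or pools.

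Islets are the endocrine clusters of the pancreas and lie embedded in acinar tissue, which makes and secretes digestive enzymes. A microRNA is cut from a hairpin precursor, and 1 strand of the hairpin, the 5p or the 3p arm, is usually kept to guide the repression of messenger RNAs that pair with its seed. The miR-216 and miR-217 precursors are transcribed from a shared locus and are widely used as markers of the exocrine pancreas. Outside the pancreas, miR-217 has been reported to repress Sirt1 in endothelial cells.

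The mature sequences show which members could act on the same messenger RNAs, and they are given 5′ to 3′ with the seed, bases 2 to 8, in capitals. They are RefSeq sequences of the rat assembly GRCr8. All 6 arms matched an entry by name, and each had the length that its position in the deposited table spans.
miR-216a-5p: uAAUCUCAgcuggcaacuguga
miR-216b-5p: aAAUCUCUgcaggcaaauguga
miR-217-5p: uACUGCAUcaggaacugacugg
miR-216a-3p: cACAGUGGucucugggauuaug
miR-216b-3p: cACACUUAcuuguagagauu
miR-217-3p: aUCAGUUCcuaaugcauugccu

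Over its 22 bases, miR-216b-5p is identical to miR-216a-5p at 18 positions. Counted from 1 at the 5′ end, with the base of miR-216a-5p first, the 4 differences are U1A, A8U, U11A and C17A. Bases 2 to 7 are therefore shared and the seeds differ in their last base. None of the 6 seeds occurs in another of the 724 mature sequences of that table. miR-217-5p shares no seed with the miR-216 arms. The hairpins show where the counted arms lie in each precursor, with both mature arms in capitals.
miR-216b: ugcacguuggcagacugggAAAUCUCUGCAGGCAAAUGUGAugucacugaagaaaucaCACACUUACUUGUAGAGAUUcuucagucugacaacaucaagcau
miR-216a: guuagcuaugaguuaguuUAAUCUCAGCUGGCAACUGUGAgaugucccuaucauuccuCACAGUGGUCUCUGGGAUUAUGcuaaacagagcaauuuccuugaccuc
miR-217: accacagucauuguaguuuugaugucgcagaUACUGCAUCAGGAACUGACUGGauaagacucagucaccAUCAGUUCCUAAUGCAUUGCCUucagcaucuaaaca

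All 6 arms lie on the plus strand of chromosome 14 in Rnor_5.0, within 18948 bases, and no other feature of the table lies within 50 kb of them. miR-216b-5p comes first (112790805 to 112790826), with miR-216b-3p at 112790844 to 112790863. miR-216a-5p starts 11475 bases further on (112802280 to 112802301), with miR-216a-3p at 112802320 to 112802341. miR-217-5p starts another 7413 bases on (112809693 to 112809714), with miR-217-3p at 112809731 to 112809752. In the RefSeq annotation of GRCr8 all 3 precursors overlap the long noncoding RNA gene LOC102550402, and those of miR-216a and miR-217 also overlap LOC102550342. Strand was not compared for these overlaps. The nearest protein-coding genes are Ccdc85a and Efemp1.

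Library totals ran from 1432929 to 4483017 counts, so these microRNAs rested on few reads: 471 reads over the 6 arms in all P10 libraries and 828 in all adult libraries. Levels are given as CPM, counts scaled to a common library size adjusted by the TMM method, which aligns libraries on the bulk of their microRNAs. Intervals quoted for single libraries are 95% exact Poisson intervals and cover counting error only, since reads amplified by PCR are not independent molecules. The 5p arms held most reads. Over all 11 libraries miR-217-5p averaged 25.4 CPM, miR-216a-5p 18.7 CPM, miR-216b-5p 7.28 CPM, miR-216a-3p 3.82 CPM, miR-217-3p 0.654 CPM and miR-216b-3p 0.622 CPM. The order of the last pair is within the spread between libraries, as is that of miR-217-5p and miR-216a-5p at P10. Ligation and PCR favour some sequences, so this order may differ from that in the cell. By comparison, the median of the 457 tested features was 49.7 CPM, and the islet microRNA miR-375-3p, which restrains insulin secretion, was at 143108 ± 21141 CPM at P10 (SD, n = 5).

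miR-217-5p was higher in adult islets, and it was the member with the clearest difference. Its level at P10 was 10.2, 8.74, 12.9, 8.83 and 7.69 CPM in replicates 1, 3, 4, 5 and 6, from 13 to 49 reads per library. In adults it was 53.3, 13.4, 55.7, 25.6, 21.8 and 61.2 CPM in replicates 1 to 6, from 35 to 120 reads. Every adult library lay above every P10 library, but adult replicate 2 only just: its interval of 9.31 to 18.6 CPM includes the highest P10 value. The age means were 9.68 ± 2.03 CPM for P10 (SD, n = 5) and 38.5 ± 20.6 CPM for adults (SD, n = 6), and the fitted rise was 3.90-fold. The log2 fold change was 1.96 ± 0.38 (SE, 95% interval 1.14 to 2.79, edgeR quasi-likelihood test with Benjamini-Hochberg adjustment over all tested features, adjusted p = 0.000805). Among all 457 tested features the ranges did not overlap in 30.0%, and in 13.6% they did not overlap with the adults higher. In bulk samples, more cells of a type and more of a microRNA per cell cannot be told apart. The rise passed the test under all 11 other settings and without each library in turn, with log2 changes from 1.67 to 2.14.

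miR-216a-5p also passed the test as higher in adults, with ranges that overlapped. At P10 it was at 7.27, 8.74, 13.5, 7.98 and 11.6 CPM in replicates 1, 3, 4, 5 and 6. In adult replicates 1 to 6 it was at 37.2, 6.87, 41.9, 11.7, 12.9 and 45.4 CPM. Adult replicates 1, 3 and 6 lay above all P10 libraries, while adult replicates 4 and 5 lay within the P10 range and adult replicate 2 below it. The P10 mean was 9.81 ± 2.63 CPM (SD, n = 5) against an adult mean of 26.0 ± 17.3 CPM (SD, n = 6). The log2 change was 1.36 ± 0.46 with a 95% interval of 0.37 to 2.35 (SE from edgeR, adjusted p = 0.0259). The call ended when only library totals were used for scaling (log2 change 1.08, edgeR adjusted p = 0.0542) and with limma-voom (0.99, adjusted p = 0.107). It also ended when P10 replicate 1 (edgeR adjusted p = 0.0600), adult replicate 3 (0.0541) or adult replicate 6 (0.0640) was left out.

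miR-216b-5p, which shares bases 2 to 7 with miR-216a-5p, did not pass the test. It was at 2.97, 4.03, 6.33, 6.27 and 6.86 CPM in P10 replicates 1, 3, 4, 5 and 6, and at 8.46, 5.34, 14.4, 4.83, 7.74 and 12.8 CPM in adult replicates 1 to 6. In 4 of the 6 adult libraries it lay above all P10 libraries. The means were 5.29 ± 1.69 CPM (SD, n = 5) and 8.93 ± 3.90 CPM (SD, n = 6), and the log2 change was 0.69 ± 0.32 with a 95% interval of -0.0074 to 1.39 (SE from edgeR, adjusted p = 0.0906). It passed as higher with upper-quartile scaling (0.85, adjusted p = 0.0446) and with DESeq2 (0.79, adjusted p = 0.0462). Each of its libraries held 6 to 33 reads.

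Of the 6 arms, 3 passed the abundance filter, and 2 of these rose and 0 fell. Over all tested features 50.8% passed, 21.2% as higher and 29.5% as lower in adults (232, 97 and 135 of 457). The median log2 fold change was 1.36 over the 3 tested arms and -0.11 over all tested features. miR-217-5p was among the 7 features with the highest log2 change of the 97 that rose.

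**Figure D1:**
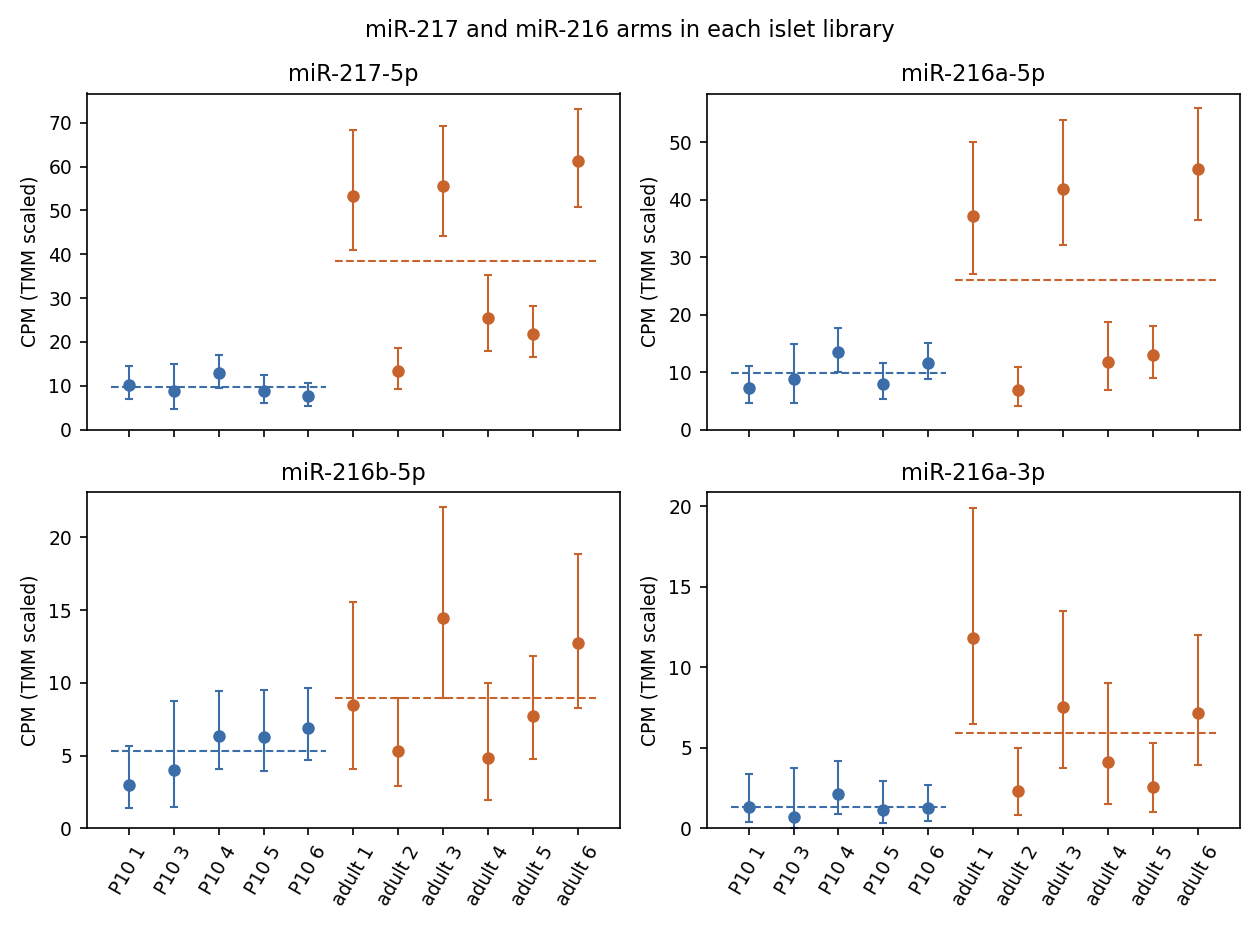
Level of 4 arms in each library, in CPM of the TMM-adjusted library size, for P10 (blue) and adult (orange) islets; points are libraries, bars are 95% exact Poisson intervals of the count, and dashed lines are age means. Adult replicates 1, 3 and 6 stand highest for miR-217-5p (53.3 to 61.2 CPM) and miR-216a-5p (37.2 to 45.4 CPM), while the P10 libraries stay between 7.27 and 13.5 CPM for both.

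The 3p arms were rare. miR-216a-3p, the partner strand of miR-216a-5p, held 4, 1, 8, 4 and 6 reads in P10 replicates 1, 3, 4, 5 and 6 and 14, 6, 11, 6, 7 and 14 reads in adult replicates 1 to 6. It did not pass the abundance filter. The P10 libraries averaged 1.30 ± 0.519 CPM (SD, n = 5) and the adult libraries 5.93 ± 3.66 CPM (SD, n = 6). The ranges, 0.672 to 2.11 CPM and 2.29 to 11.8 CPM, did not overlap, but the intervals of adult replicates 2, 4 and 5 include the highest P10 value. Over all tested features the ranges did not overlap in 30.0%, and in 13.6% with the adults higher. Without the filter, when 898 features were tested, it was higher in adults by 2.02 ± 0.45 on the log2 scale (SE from edgeR, adjusted p = 0.00163).

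miR-216b-3p had 13 reads in all P10 libraries and 5 in all adult libraries, and was at 0 in 2 P10 and 3 adult libraries. miR-217-3p, the partner of the most abundant member, had 10 and 8 reads and was at 0 in 1 P10 and 2 adult libraries. With the limit that a count of 0 allows set at 3 reads, levels up to 0.855 to 2.54 CPM, depending on the library, were possible in the libraries at 0. Without the filter neither passed (log2 change -0.67, edgeR adjusted p = 0.616, and 0.31, adjusted p = 0.797), which does not show that their levels were alike.

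Pooled over libraries, the 3p arm gave 11.9% of the miR-216a reads at P10 (23 of 193, 95% exact Clopper-Pearson interval 7.71% to 17.3%) and 18.0% in adults (58 of 322, 13.97% to 22.7%). For miR-216b the 3p share was 12.1% at P10 (13 of 107, 6.63% to 19.9%) and 4.85% in adults (5 of 103, 1.59% to 10.97%). For miR-217 it was 5.85% at P10 (10 of 171, 2.84% to 10.5%) and 1.99% in adults (8 of 403, 0.861% to 3.87%). In each precursor the intervals of the 2 ages overlapped. These intervals pool libraries and cover counting error only. In 0 of the 3 precursors did both arms average 10 reads, the minimum set for a test of arm usage between ages, so none was run.

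In the 3 abundant 5p arms the adult libraries differed from each other more than the P10 libraries did, least clearly for miR-216b-5p. These arms ordered the adult libraries in nearly the same way. For miR-217-5p the highest adult library was 4.58-fold above the lowest, against 1.68-fold at P10. For miR-216a-5p these ratios were 6.61-fold and 1.85-fold. The coefficient of variation of miR-217-5p was 53.4% in adults and 20.9% at P10, where counting alone gives about 12.3% and 19.1%. For miR-216a-5p it was 66.5% in adults and 26.8% at P10, where counting gives about 14.9% and 18.9%. For miR-216b-5p it was 43.7% in adults and 32.0% at P10, where counting gives about 25.5% and 25.8%. Among the 211 tested features averaging 5 to 50 CPM, the median in adults was 29.5% and the 95th percentile 60.1%. Thus miR-216a-5p lay above that percentile and miR-217-5p below it. At P10 the median of these features was 27.4% and the 95th percentile 69.0%. In all 3 of these arms, and in miR-216a-3p, the 3 highest adult libraries were replicates 1, 3 and 6, although for miR-216b-5p the intervals of replicates 1 and 5 overlapped. These spreads were looked at after the values were seen and are a description.

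Other values of these adult libraries are given here, and their part in the result was not tested. Replicates 1, 3 and 6 held 1432929, 1615881 and 2060534 counts, and replicates 2, 4 and 5 held 2722608, 1553517 and 2847837. The summed islet endocrine list was at 337676, 276245 and 303095 CPM in replicates 1, 3 and 6 and at 264778, 316731 and 303712 CPM in replicates 2, 4 and 5. The summed mesenchymal list was at 58287, 31421 and 17172 CPM in replicates 1, 3 and 6 and at 31799, 18096 and 21816 CPM in replicates 2, 4 and 5. The summed leukocyte list was at 749.9, 832.3 and 380.7 CPM in replicates 1, 3 and 6 and at 764.2, 281.8 and 248.9 CPM in replicates 2, 4 and 5. In each of these 3 lists the summed levels of the libraries high in miR-217-5p overlapped those of the other 3. The endocrine and mesenchymal sums were mostly miR-375-3p and miR-143-3p, so they say little about the other members of those lists.

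Whether the acinar arms rose more or less than the endocrine signal was asked with the ratio to miR-375-3p in the same library. As a ratio of reads it needs no scaling between libraries, and the tested log2 ratio depends on the scaling only through its prior count of 2. For each 100000 reads of miR-375-3p, the P10 libraries held 4.79 to 9.55 reads of miR-217-5p (median 7.28), and the adult libraries 5.32 to 21.1 (median 12.4). For miR-216a-5p the numbers were 4.81 to 9.94 at P10 (median 7.25) and 2.73 to 15.9 in adults (median 7.94). For miR-216b-5p they were 2.11 to 4.68 (median 3.78) and 1.59 to 5.48 (median 2.63). The adult and P10 ranges overlapped for all 3 arms.

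On the scale of log2 (CPM + 2), the ratio of miR-217-5p to miR-375-3p was 0.61 higher in adults (p = 0.152 by two-sided exact permutation of the ages, with 462 splits, and 0.227 when adjusted for the 3 arms), with 3 of 6 adult libraries above all P10 libraries. Those were replicates 1, 3 and 6. The difference was 0.17 with a prior count of 10, 0.74 with 0.5 and 0.79 as a ratio of counts with no prior count, and passed in none of these. The ratio of miR-216a-5p was 0.026 lower in adults by the mean (difference -0.026, exact permutation p = 0.965, adjusted p = 0.965). The SD of that ratio was 1.00 among adults (n = 6) and 0.38 at P10 (n = 5), and a p of this size does not show that the ages are alike. The ratio of miR-216b-5p differed by -0.47 (exact permutation p = 0.115, adjusted p = 0.227). With a prior count of 10 in place of 2, it passed as lower in adults (difference -0.73, exact permutation adjusted p = 0.0195). That prior is about as large as the levels of the arm itself (2.97 to 14.4 CPM), so the ratio then follows mainly miR-375-3p. As a ratio of counts with no prior count, the difference was -0.31 and did not pass (exact permutation adjusted p = 0.588). Thus none of the 3 arms passed relative to miR-375-3p, which itself rose by 1.01 on the log2 scale (edgeR adjusted p = 8.67e-06).

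miR-217-5p also differed from the miR-216 5p arms in the size of its age difference, a comparison chosen after the data were seen. Within a library, the log2 ratio of miR-217-5p to miR-216a-5p was -0.0047 ± 0.32 at P10 (SD, n = 5) and 0.63 ± 0.24 in adults (SD, n = 6). The difference of 0.63 passed (two-sided exact permutation test, p = 0.00433, adjusted p over the 3 pairs = 0.0130), with 5 of 6 adult libraries above all P10 libraries. Adult replicate 3 (0.39) lay below P10 replicate 1 (0.40). The ratio of miR-217-5p to miR-216b-5p went from 0.70 ± 0.45 to 1.78 ± 0.51 (difference 1.08, exact permutation p = 0.0130, adjusted p = 0.0195), with 4 of 6 adult libraries above all P10 libraries. The ratio of miR-216a-5p to miR-216b-5p did not pass (difference 0.45, exact permutation p = 0.175, adjusted p = 0.175, SD 0.63 among adults, n = 6, and 0.27 at P10, n = 5). The smallest p that these splits allow is 0.00216. At P10 miR-217-5p and miR-216a-5p were thus at nearly the same level, and in every adult library miR-217-5p was the higher.

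**Figure D2:**
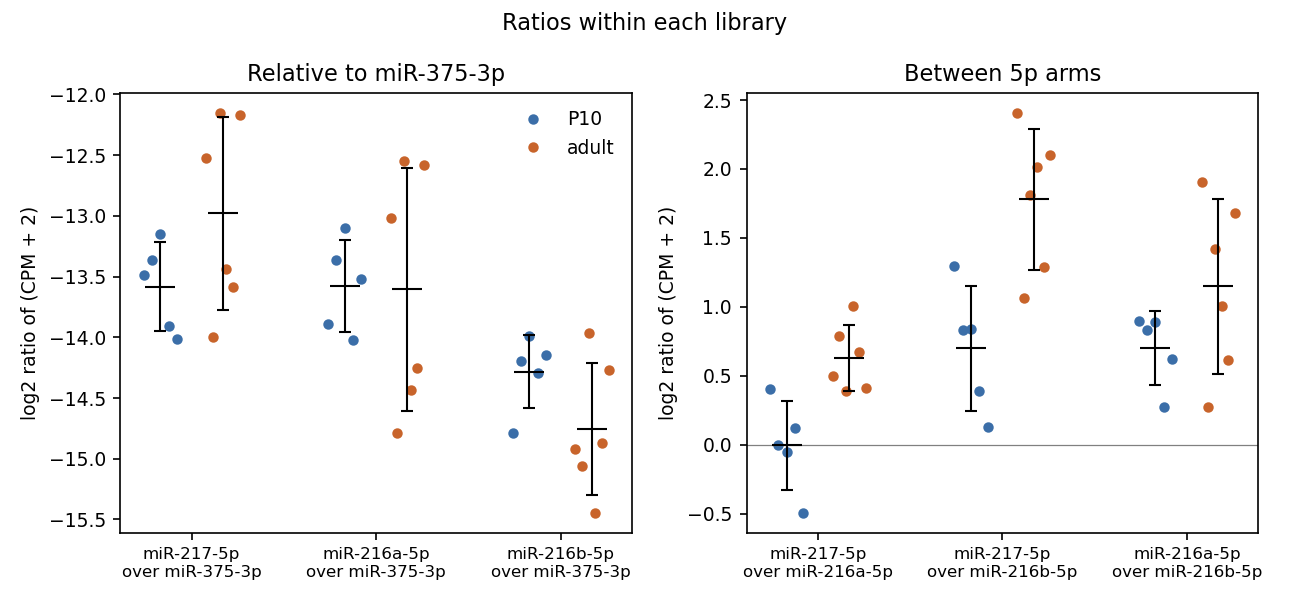
Log2 ratio of (CPM + 2) within each library, for 5p arms over miR-375-3p (left) and for pairs of 5p arms (right); points are libraries (P10 blue, adult orange), and black marks are the mean and SD. On the left the ages overlap for each arm, and on the right the adult mean of miR-217-5p over miR-216a-5p is 0.63, against -0.0047 at P10.

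The plot of log2 fold changes by setting shows how the 3 tested arms differed in stability. miR-217-5p passed in each setting shown. miR-216a-5p stayed positive but lost its call in 5 settings, and miR-216b-5p gained a call in 2.

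**Figure D3:**
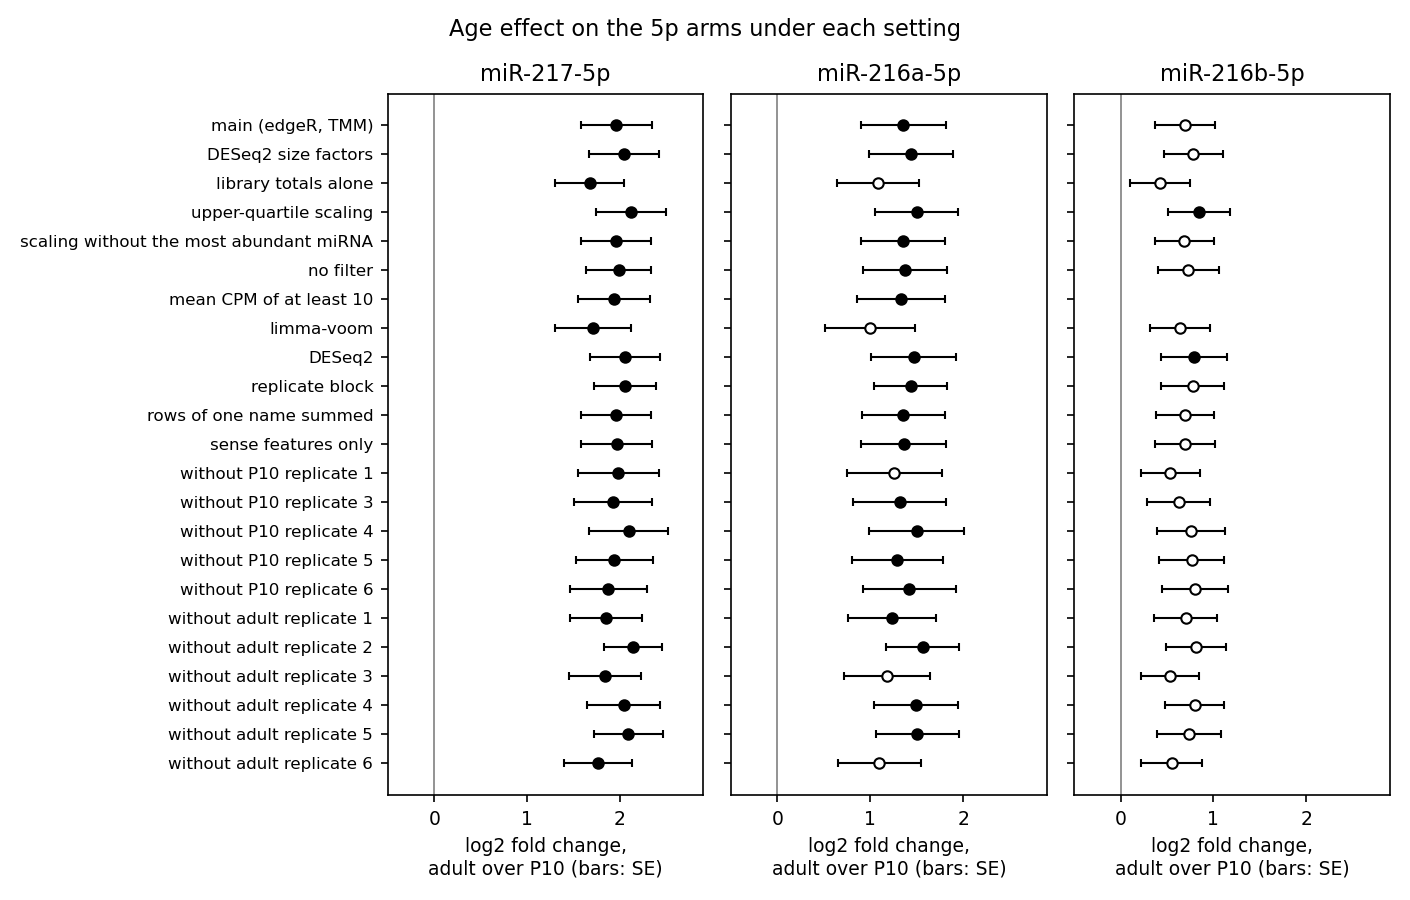
Log2 fold change (adult over P10) of each tested 5p arm under every setting, with bars of 1 SE; filled points passed at an adjusted p under 0.05 and open points did not. miR-217-5p lies between 1.67 and 2.14 throughout, miR-216a-5p between 0.99 and 1.56, and miR-216b-5p, which was not tested at a mean CPM of at least 10, between 0.43 and 0.85.

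Likeness to miR-217-5p across the 11 libraries was measured on log2 (CPM + 2). The mean of each age was first subtracted, so that the age difference itself did not count. The arm most like it was its neighbour miR-216a-5p (Pearson r = 0.95), followed by miR-216a-3p (0.90), and miR-216b-5p was at 0.66. The rare arms were at 0.48 (miR-216b-3p) and -0.066 (miR-217-3p), from counts near 0 and mean levels below the added 2 CPM. Among 336 other sense features averaging at least 10 CPM, the highest r were those of miR-342-5p (0.79), ENSRNOT00000070944_-5p (0.77), miR-423-5p (0.77), miR-27b-5p (0.70) and miR-298-5p (0.69). All 5 were below miR-216a-5p. Libraries that share a size factor and depth can move together, so these values are descriptions. Each r pools both ages. Deviations of miR-217-5p ran from -0.254 to 0.369 at P10 and from -1.21 to 0.830 in adults, so the adult libraries weigh most in r. Likeness within P10 alone was not measured.

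Of these 5, miR-423-5p rose in adults (log2 change 1.17, edgeR adjusted p = 0.000647), as did miR-27b-5p (0.58, adjusted p = 0.00457). ENSRNOT00000070944_-5p fell by 2.10 (edgeR adjusted p = 3.51e-06) and miR-298-5p fell by 0.90 (adjusted p = 0.000232), while miR-342-5p did not pass (0.27, adjusted p = 0.358). Features that were like miR-217-5p by this pooled measure thus differed in direction between the ages. Of the 5, all but ENSRNOT00000070944_-5p had their lowest adult level in replicate 2, as miR-217-5p did. Without the subtraction the 5 highest were miR-423-5p (0.92), miR-27b-5p (0.90), miR-6329-5p (0.87), miR-664-2-5p (0.87) and miR-132-3p (0.86), which all rose.

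**Figure D4:**
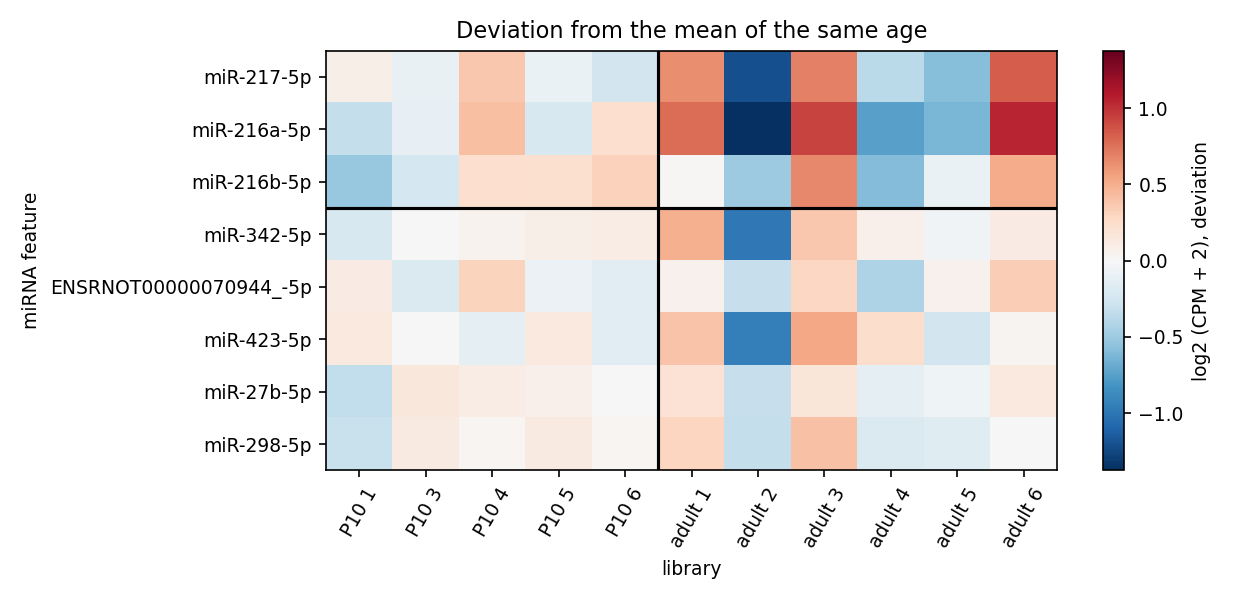
Deviation of log2 (CPM + 2) from the mean of the same age, for the 3 abundant 5p arms (above the horizontal line) and the 5 features most like miR-217-5p (below), by library. Adult replicates 1, 3 and 6 are above the age mean for miR-217-5p and miR-216a-5p, and adult replicate 2 is lowest for both (-1.21 and -1.38).

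Markers of other cells were read from the same libraries. The members are 3 of the 4 acinar names listed, and their summed level was 22.2 to 37.7 CPM at P10 and 28.6 to 127.1 CPM in adults. miR-148a, the other name, was not analysed here. Leaders of a list are named by level alone, and not all of them were called. For the counts that follow, 21.2% of all 457 tested features rose and 29.5% fell. Whether any list differed from these shares was not tested. Of 18 tested arms of the islet endocrine list, led by miR-375-3p and miR-183-5p, 9 rose and 2 fell. The summed level was 128274 to 176881 CPM at P10 and 264778 to 337676 CPM in adults. Most of that sum was miR-375-3p (251238 to 325026 CPM in adults), which rose. miR-183-5p fell (log2 change -0.38, edgeR adjusted p = 0.0191). In the epithelial list, led by miR-141-3p and miR-429-3p, which endocrine, duct and acinar cells share, 3 of 5 tested arms rose and 0 fell (24833 to 38549 CPM, and 48867 to 59658 CPM). In the mesenchymal list, led by miR-143-3p and miR-199a-3p, 4 of 6 fell and 0 rose (33246 to 61126 CPM, and 17172 to 58287 CPM). Most of that sum was miR-143-3p, which did not pass (log2 change -0.49, edgeR adjusted p = 0.174). miR-199a-3p fell (-2.28, edgeR adjusted p = 3.59e-05). In the leukocyte list, led by miR-142-5p and miR-150-5p, 1 of 4 fell (681.0 to 1427 CPM, and 248.9 to 832.3 CPM). In the liver and gut list, led by miR-192-5p and miR-194-1-5p, 2 of 4 fell (8557 to 13396 CPM, and 5663 to 8124 CPM). The erythroid list, led by miR-451-5p and miR-144-5p (24.2 to 72.3 CPM, and 14.5 to 63.7 CPM), had 0 of 2 called, and the nerve and brain list, led by miR-219-1-3p and miR-219-1-5p (6.72 to 14.5 CPM, and 6.12 to 13.7 CPM), 0 of 1. The endothelial miR-126 was not analysed here. The part of these other lists in the rise of miR-217-5p was not tested.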

How the data were processed

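Deposited values are unnormalized read counts for each mature arm at its Rnor_5.0 position, per the file headers. RNA came from a Trizol extraction and libraries from an Illumina TruSeq small RNA kit, per the labels' protocols. edgeR and DESeq are named with no role in the submitters' processing notes. The aligner is not given in the sources used here, nor are counting rules. Per-library tables differed from the series table in 0 counts. Names were kept once, with the highest count of their rows in each library (898 features).

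Counts were tested in R 4.3.3 with edgeR 4.0.16: filterByExpr, TMM factors and a robust quasi-likelihood fit of age over all features, with a threshold of 0.05 on the Benjamini-Hochberg adjusted p. Standard errors came from the quasi-likelihood statistic. Log2 ratios used a prior count of 2 and two-sided exact permutation. Likeness and deviations used the same prior count. Alternatives were other scalings and filters, limma-voom (limma 3.58.1), DESeq2 1.42.0, a replicate block, summed rows, sense features only and leaving out each library. The edgeR step was tested on simulated data.

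All members were named, with the 2 most abundant arms of each marker list and the 5 features most like miR-217-5p. Members and lists were chosen with earlier results of these data known.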

Additional observations from a re-analysis of the deposited data

Results flagged for a closer look

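miR-216b-3p in adult replicate 3 stood apart from the other adult libraries: its gap to the nearest library was 0.665 of the adult range. That library held 3 reads (2.06 CPM), and the other 5 held 0 or 1. Of the 12 sets of values examined (6 arms at 2 ages) it was the 1 set with such a library. Chance flags about 1 in 20 of such sets, a rate that holds for continuous values and not for counts this low. The flag is therefore given no weight.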

How the results depend on the processing

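miR-217-5p kept its direction and its call under all 11 other settings (log2 change 1.67 to 2.12) and without each library (1.76 to 2.14). miR-216a-5p kept its direction, and its log2 change was 1.08 with library totals alone and 0.99 with limma-voom, which ended the call, and 1.10 to 1.56 without a library. miR-216b-5p passed with upper-quartile scaling (0.85) and DESeq2 (0.79) and ranged from 0.53 to 0.81 without a library. Of the arms, 1 rose with limma-voom (98 features rose and 123 fell), 1 with library totals alone, 3 with no filter (97 rose and 120 fell of 898), and 1 to 3 without a library (86 to 97 rose). The number was 3 without P10 replicate 3, where miR-216a-3p passed the filter (log2 change 1.88, edgeR adjusted p = 0.00676); it passed that filter only through the adult libraries, where it is high, so this call supports nothing. Over all features 54 rose and 187 fell with library totals alone, against 97 and 135, and the median of all features shifted by -0.26; the shift was 0.16 for upper-quartile scaling (127 rose and 103 fell). The cause of these changes was not tested.

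Relative to miR-375-3p, the difference of miR-216a-5p, near 0 and without a call, was 0.055 with a prior count of 0.5, 0.086 as a ratio of counts with no prior count (chosen after seeing the data), 0.23 relative to the summed miR-200 family, -0.30 with a prior count of 10, -0.31 relative to miR-7a-5p, and -0.24 to 0.21 without a library. That of miR-217-5p, 0.61, was 0.17 with a prior count of 10, 0.33 relative to miR-7a-5p, 0.87 relative to the miR-200 family and 0.44 to 0.81 without a library, and passed in none. That of miR-216b-5p was -0.73 with a prior count of 10, which passed, and -0.31 with no prior count, which did not. Without a library it was -0.63 to -0.34. Ratios between arms kept their calls with both other prior counts and without each library. Same-numbered libraries of the 2 ages did not deviate together (correlations -0.22 to 0.22), and in 0 of 5 cases was the same-numbered adult the closest. With the replicate block the log2 changes were 2.06, 1.43 and 0.78 for miR-217-5p, miR-216a-5p and miR-216b-5p, with the same 2 calls, and 93 features rose and 112 fell. The 3p arms had few reads, and depth limits what differences they could show.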
